A study of Bos taurus with 4 samples.

Results

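The 8 transcription factors TEAD4, CDX2, GATA2, GATA3, TFAP2A, TFAP2C, EOMES and ELF5 were followed in bovine blastocysts sired with semen of younger or older bulls. They were chosen by name, as factors known for setting up the trophectoderm, and every probe whose platform symbol is 1 of these 8 was taken. This gave 13 of the 43794 probes of the array. TFAP2A and TFAP2C had 3 probes each, TEAD4 had 2, and CDX2, GATA2, GATA3, EOMES and ELF5 had 1 each. Signal sufficed for a test at 11 of the 13 probes, at least 1 for each of the 8 genes.

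Blastocysts were made in vitro by fertilising matured oocytes from slaughterhouse ovaries with semen that bulls gave at 12 or at 16 months of age. Total RNA was amplified, and each of 4 arrays received RNA of both ages, in different dyes. The 12-month RNA carried the dye Cy5 on arrays 1 and 2 and Cy3 on arrays 3 and 4. The labels call the arrays biological replicates and name 4 bulls, but do not say which bull an array stands for. The p-values therefore speak only for these arrays. In limma the variance of each probe, left after age and dye are fitted, is drawn towards that of all tested probes. The p-values and intervals rest on this moderated variance, while the SDs given are of the 4 array ratios as they stand. An interval can thus be wide beside a small SD, or narrow beside a large one. Both groups share the in vitro culture and the origin of the oocytes. No genotype, breed or embryo number is given in the sources used here, and whole embryos were measured, not separated lineages.

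The blastocyst is the first stage at which a mammalian embryo has distinct cell lineages. Its outer epithelium, the trophectoderm, goes on to form the fetal part of the placenta, and it encloses the inner cell mass, from which the embryo proper develops. In the mouse, outer cells keep the coactivator YAP1 in the nucleus, where it binds TEAD4 and turns on CDX2, while GATA3 acts beside CDX2. The AP-2 factors TFAP2A and TFAP2C and the zinc finger factor GATA2 regulate trophoblast genes, and EOMES and ELF5 keep mouse trophoblast stem cells in their undifferentiated state. In cattle the trophectoderm also secretes interferon tau, the signal by which the mother recognises pregnancy.

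None of the 8 genes differed between the ages beyond the spread of the arrays. The fitted log2 ratios of 12 over 16 months, in which a positive value is higher with 12-month semen, ran from -0.070 to 0.16 over the 11 tested probes. Of these, 8 lay above 0 and 3 below, where 50.3% of all tested probes lay above 0. When arrays were median-centred in place of loess, 5 of the 11 lay above 0, against 46.3% of all. The 95% confidence interval of each of the 11 included 0. At an adjusted p of 0.05 in limma 0 of the 11 probes were called, against 0% of all 30986 probes tested. At an unadjusted p under 0.05 there were again 0 of 11, against 4.12% of all probes (2.16% higher and 1.96% lower at 12 months). The median of the 11 probes was 0.040 and that of all tested probes 0.0010.

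The signal was first set against the array's own negative controls, which are spots with a sequence that should find no target. A probe counted as above background on an array and dye when its spot signal minus local background was above the 95th percentile that the 153 negative controls reached there. This level lay between 62.4 and 95.4 intensity units in Cy5 and between 224.6 and 268.2 in Cy3. It was passed in all 8 channel signals by 9 of the 13 probes. Brightness depends on the probe as well as on the transcript, so it does not order the genes by abundance.

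**Figure D1:**
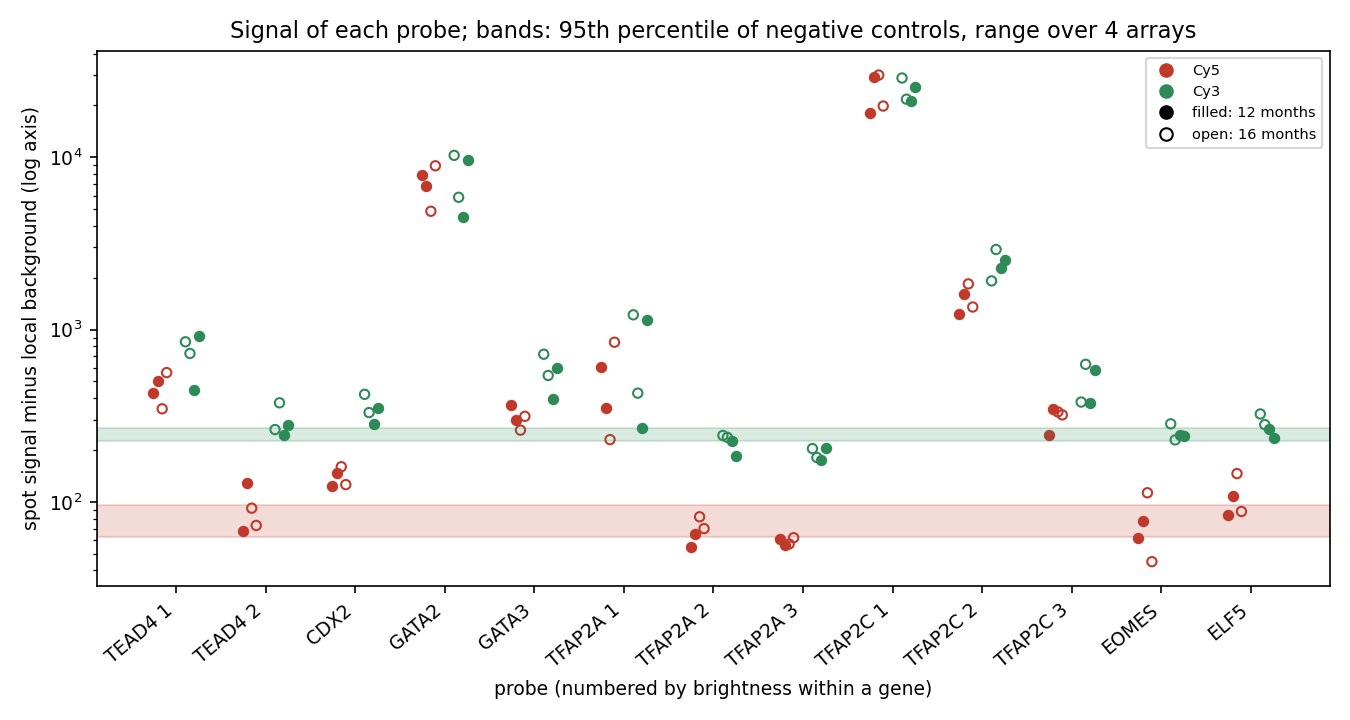
Spot signal minus local background (intensity units, log axis) of the 13 probes in the 8 channel signals, with Cy5 in red, Cy3 in green, 12-month RNA filled and 16-month RNA open. The bands span the 95th percentile of the negative controls over the 4 arrays; the first TFAP2C probe and the GATA2 probe lie far above them, while the EOMES probe and the second and the third TFAP2A probes lie in or close to them.

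TFAP2C, an AP-2 factor, lay far above background. Its first probe (EMBV3_20670) gave 18152, 29422, 21329 and 25678 in the 12-month RNA of arrays 1 to 4 and 28878, 21759, 30027 and 19850 in the 16-month RNA, and no member spot was saturated. GATA2 (EMBV3_33873) gave 7933, 6822, 4486 and 9608 at 12 months and 10271, 5864, 4865 and 8933 at 16 months. These raw signals differ between ages partly because Cy3 and Cy5 are read on different scales. The normalised ratios below remove the part of this that probes of like brightness share, but not a dye effect of a single probe.

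CDX2 was dim but measurable. The probe of this homeobox factor (EMBV3_31912) gave 123, 147, 283 and 351 at 12 months and 421, 330, 160 and 126 at 16 months, above background in all 8 channel signals. ELF5, an ETS factor (EMBV3_07901), was also above background in all 8, with signals from 84 to 324. EOMES, a T-box factor (EMBV3_29868), passed in only 4 of 8, on 2 arrays at each age. The second TEAD4 probe (EMBV3_16153) passed in 6 of 8, on 4 arrays at 12 months and on 2 at 16 months. The second TFAP2A probe (EMBV3_03075) passed in 2 of 8 and the third (EMBV3_01855) in 0 of 8, so neither was tested. The remaining probes, the first of TEAD4 (EMBV3_07208), GATA3 (EMBV3_19232), the first of TFAP2A (EMBV3_18537) and the second and the third of TFAP2C (EMBV3_17753, EMBV3_27962), passed in all 8.

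**Figure D2:**
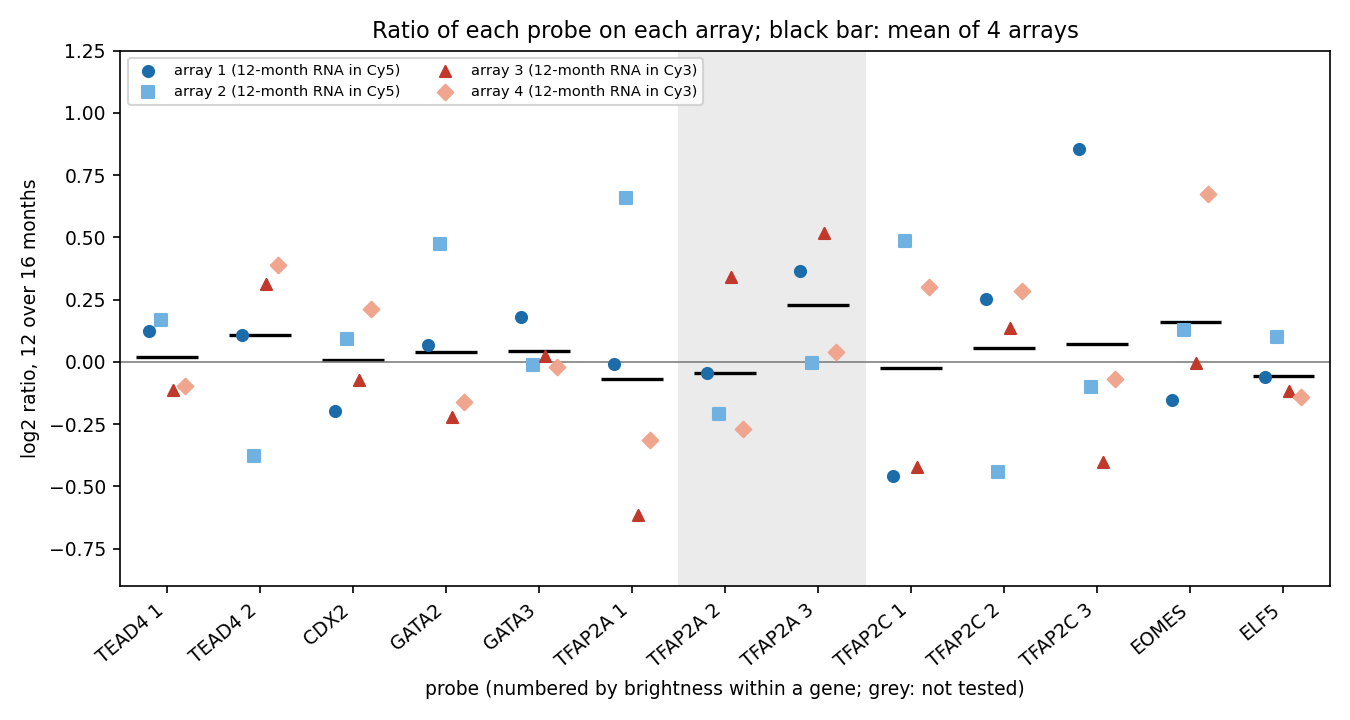
Log2 ratio of 12 over 16 months (vertical axis) of each probe on each of the 4 arrays, with arrays 1 and 2 in blues, arrays 3 and 4 in reds and the mean as a black bar; untested probes stand on grey. No tested probe has its 4 arrays on the same side of 0, and the means of the tested probes lie between -0.070 and 0.16.

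TEAD4, the DNA-binding partner of YAP1 at the top of the cascade, had log2 ratios of 0.12, 0.17, -0.11 and -0.095 on arrays 1 to 4 at its first probe. The arrays with the 12-month RNA in Cy5 were above 0 and the others below. The mean was 0.021 ± 0.15 (SD, n = 4), with a 95% confidence interval from -0.24 to 0.28 and an adjusted p of 0.993 in limma. The second, dimmer probe read 0.11, -0.38, 0.31 and 0.39, so on 1 of 4 arrays only did the probes of this gene share a sign. Its mean was 0.11 ± 0.34 (adjusted p = 0.969 in limma).

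CDX2, which in the mouse represses pluripotency genes in outer cells, read -0.20, 0.093, -0.071 and 0.21. Arrays 2 and 4 were above 0 and arrays 1 and 3 below, so the signs did not follow the dyes. The mean was 0.0094 ± 0.18 (n = 4), the smallest in size of the 8 genes at their brightest probe, and the confidence interval ran from -0.27 to 0.29. As a fold, this interval spans 0.828 to 1.22 (adjusted p = 0.998 in limma).

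The GATA factors, zinc finger proteins that bind the motif GATA, were both well above background. GATA2 read 0.067, 0.48, -0.22 and -0.16, above 0 where the 12-month RNA was in Cy5 and below 0 where it was in Cy3. Its mean was 0.040 ± 0.32 (n = 4), with an interval from -0.24 to 0.32 and an adjusted p of 0.986 in limma. GATA3 was the most even gene of the set at 0.18, -0.014, 0.026 and -0.019. Its mean was 0.043 ± 0.094 (n = 4), with an interval from -0.22 to 0.31 and an adjusted p of 0.985. The SD of GATA3 was at the 4.92th percentile of the SDs of all tested probes, and that of GATA2 at the 61.6th.

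At the brightest probe of each gene, the AP-2 factors had the widest spread. TFAP2A read -0.010, 0.66, -0.62 and -0.31 at its bright probe, with the arrays 1.27 log2 units apart at most. The mean was -0.070 ± 0.54 (n = 4), the interval ran from -0.39 to 0.25, and the adjusted p was 0.983 in limma. Its SD lay at the 92.8th percentile of tested probes. The 2 untested probes read -0.045, -0.21, 0.34 and -0.27, and 0.37, -0.0062, 0.52 and 0.041, near background where a ratio carries little information.

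The 3 TFAP2C probes did not follow each other. The first and brightest read -0.46, 0.48, -0.42 and 0.30, the second 0.25, -0.44, 0.13 and 0.29, and the third 0.85, -0.099, -0.40 and -0.069. On array 1 they were 1.31 log2 units apart, although they were hybridised with the same RNA and all were above background in every channel. The first and second shared a sign on 1 of 4 arrays, the first and the third on 1, and the second and the third on 2. The means were -0.023 ± 0.49, 0.058 ± 0.34 and 0.071 ± 0.54 (SD, n = 4), with adjusted p from 0.984 to 0.995 in limma. The interval of the first probe reached down to 0.742-fold, those of the second and the third to 0.833-fold and 0.811-fold. Whether these probes detect different transcripts or parts of the gene was not tested, since no probe position was used.

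EOMES and ELF5, which act later in the mouse trophoblast, had signals closer to background. EOMES read -0.15, 0.13, -0.0044 and 0.68. Array 4 stood highest, and there its 16-month signal of 45 was below the negative control level of 66.0, while its 12-month signal of 240 was above its own level of 224.6. The mean was 0.16 ± 0.36 (n = 4), the largest in size of the tested probes, with an interval from -0.16 to 0.49, up to 1.40-fold, and an adjusted p of 0.969 in limma. Without array 4 the fitted value was -0.0080. ELF5 read -0.060, 0.10, -0.12 and -0.14, with a mean of -0.055 ± 0.11 (n = 4), an interval from -0.32 to 0.21 and an adjusted p of 0.983.

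Taken by array, the tested members showed no common direction. Their median was 0.067 on array 1, 0.10 on array 2, -0.11 on array 3 and -0.019 on array 4. Of the 44 values, 21 lay above 0 and 23 below. No tested probe kept 1 sign on all 4 arrays (0 of 11, against 10.1% of the 30388 tested probes measured on every array, 4.76% above 0 and 5.35% below). The arrays as a whole also pointed apart: over those probes, the 12-over-16 ratios correlated at 0.33 between arrays 1 and 2 and at -0.032 between arrays 3 and 4, and between -0.24 and -0.10 across the dye orientations. These correlations are across probes, which are not independent replicates.

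The dye was a larger term than age for most members. In the same fit, the dye coefficient (Cy5 over Cy3 at equal age) was larger in size than the age coefficient for 10 of 11 probes, against 57.4% of all tested probes. Its median size was 0.15 over the members and 0.12 over all tested probes. TFAP2A had the largest, at 0.39 with an interval from 0.070 to 0.72, the only 1 of the 11 whose interval lay off 0 and the only 1 at an unadjusted p under 0.05, against 11.2% of all probes. It did not pass after adjustment (adjusted p = 0.369 in limma). The third TFAP2C probe stood at 0.31, the second TEAD4 probe at -0.24 and GATA2 at 0.23, each with an interval that included 0. Over all tested probes 0.029% passed an adjusted p of 0.05 for dye in limma (0.00968% higher and 0.0194% lower in Cy5), and 0 of the members did.

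**Figure D3:**
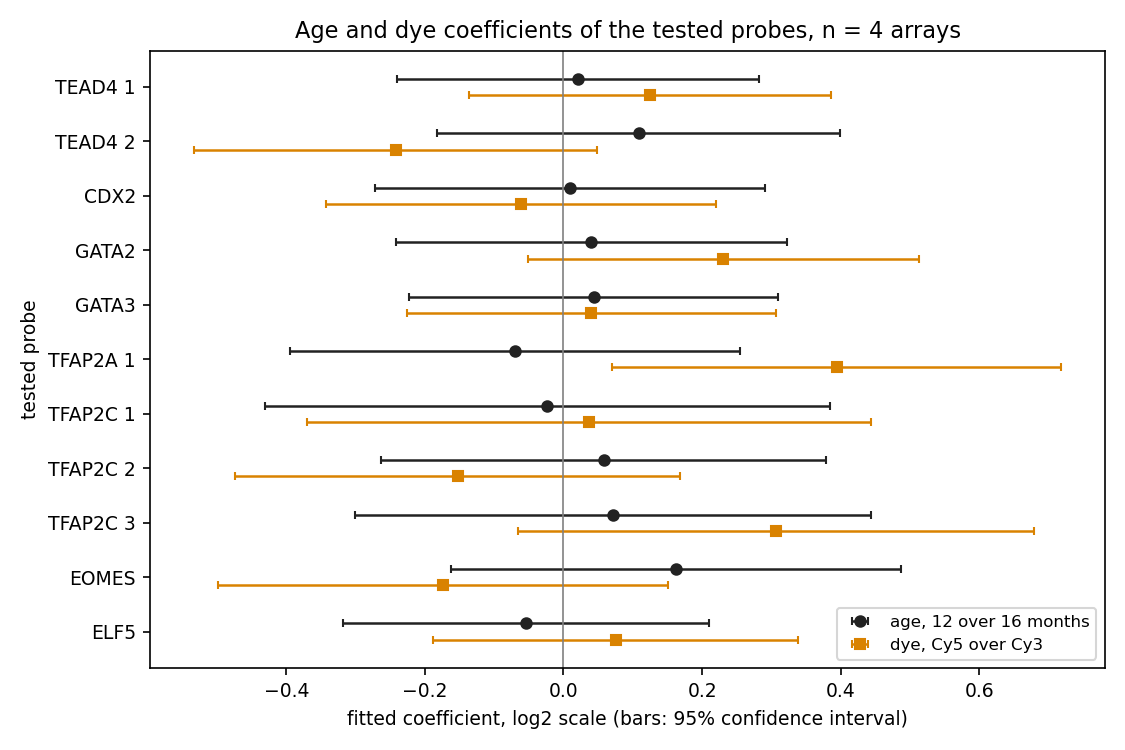
Fitted coefficients on the log2 scale (horizontal axis) of the 11 tested probes for age (black circles) and dye (orange squares), with 95% confidence intervals from limma. All 11 age intervals include 0, and the only dye interval that does not is that of TFAP2A, from 0.070 to 0.72.

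The TFAP2A level differed more between arrays than between the ages within an array. It ranged over 2.35 log2 units at 12 months and 1.96 at 16 months, where the ages on 1 array were at most 0.66 apart. Levels here are log2 intensities after loess within arrays and quantile scaling of brightness between arrays. TFAP2A stood at 9.77, 8.76, 7.43 and 9.69 on arrays 1 to 4 in the 12-month RNA and at 9.78, 8.10, 8.04 and 9.999 in the 16-month RNA. Both ages were high on arrays 1 and 4 and low on arrays 2 and 3. Each array reads both ages from the same spot, so this likeness of the ages is no independent check. Averaged over both ages, the highest and lowest arrays were 2.11 log2 units apart, or 4.31-fold. The SD of that level over arrays was 1.04, at the 98.6th percentile of tested probes, whose median was 0.18. These levels rest on the 1 tested TFAP2A probe, and TFAP2A was singled out after its values were seen.

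GATA2, GATA3 and the first TEAD4 probe were lowest on array 3 at both ages. The second TEAD4 probe was not, with 6.98 on array 1 and 7.13 on array 3 at 12 months. GATA2 stood at 13.10, 12.94, 12.02 and 13.07 at 12 months and at 13.03, 12.47, 12.24 and 13.23 at 16 months. GATA3 ran from 8.18 to 9.09 at 12 months and from 8.16 to 8.91 at 16 months. The first TEAD4 probe ran from 8.44 to 9.35 and from 8.55 to 9.44. The SD of the level over arrays lay at the 92.6th percentile for GATA2, the 84.9th for GATA3 and the 89.7th for the first TEAD4 probe. CDX2, ELF5 and the first TFAP2C probe varied little, at the 27.8th, 21.7th and 12.9th percentile. The second and the third TFAP2C probes varied more, at the 63.6th and the 79.1th. For 5 of the 11 tested probes the SD of the level over arrays exceeded the SD of the age ratio, for ELF5 only by 0.115 against 0.109. The medians of these SDs over all tested probes were 0.18 and 0.27, and the share of all probes was not counted. A level averages the channels and a ratio sets them against each other, so the SDs are not on a like scale. Effects of the bull, embryo pool, amplification, hybridisation or spot cannot be told apart in this design, and the differences between arrays have no replicate check.

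**Figure D4:**
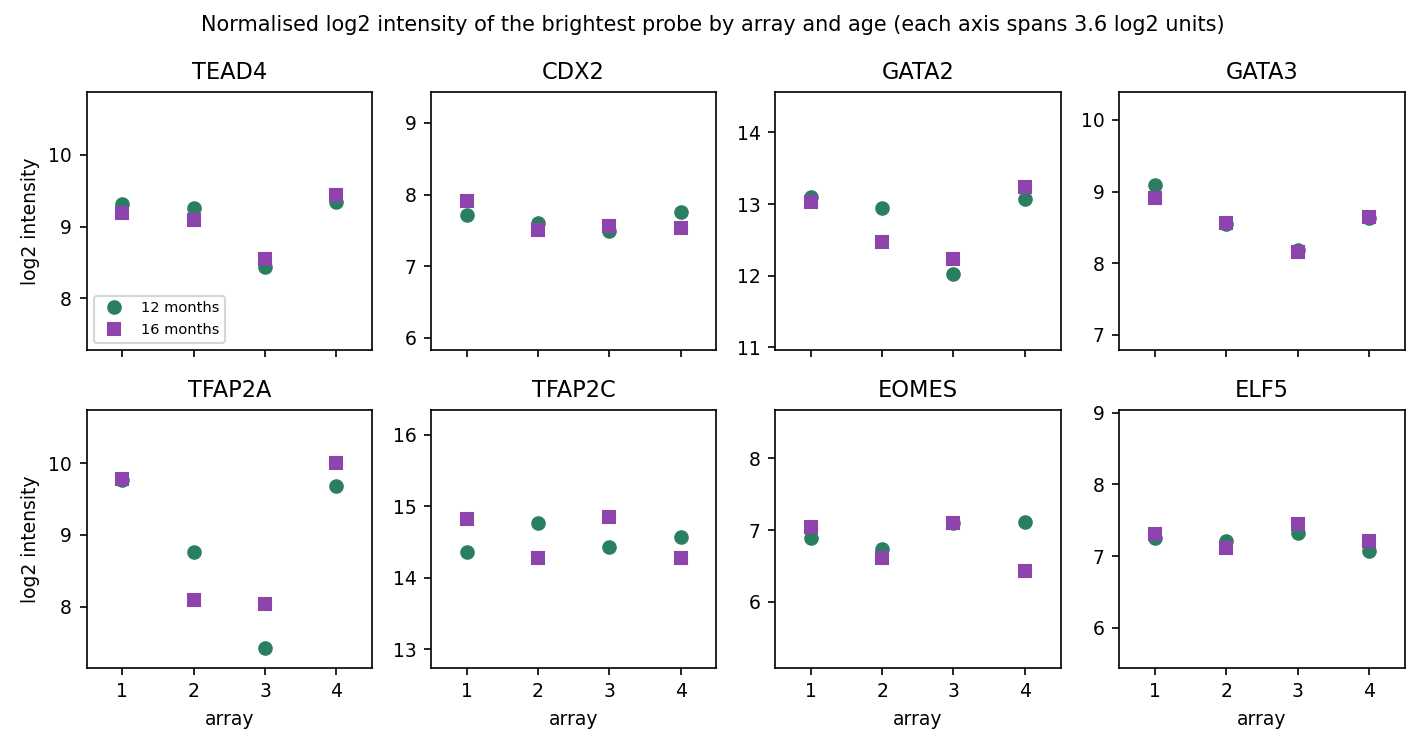
Normalised log2 intensity (vertical axes, all of the same span) of the brightest probe of each of the 8 genes by array, with 12-month RNA as green circles and 16-month RNA as purple squares. For TFAP2A the circle and square of an array, which are read from the same spot, are high on arrays 1 and 4 and low on arrays 2 and 3. CDX2, GATA3, TFAP2C, EOMES and ELF5 stay within 1 log2 unit over all arrays and ages.

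Genes of the surrounding pathway were read in the same fit. The lists were chosen with earlier results of these data known, a gene with several tested probes is represented by the brightest with a value on every array, and 0% of all probes passed for age. Of 18 Hippo and TEAD partners, which relay cell position to TEAD4, 15 were tested, 0 passed in either direction, and the median was 0.055. The angiomotin relative AMOTL2 stood at 0.27 ± 0.35 and the kinase STK3 at 0.25 ± 0.14 (SD, n = 4), the smallest unadjusted p of that list. Of 18 other regulators of trophectoderm and trophoblast, 15 were tested, 0 passed, and the median was 0.073, with ARID3A at 0.21 ± 0.39 and the signalling ligand BMP4 at 0.15 ± 0.12 (n = 4). The adjusted p of each of these 4 genes was 0.969 in limma.

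Family relatives of the 8 genes, which share their DNA-binding domains and include 3 of the TEAD partners above, were looked at because a probe could pick up a related transcript. Of 20 relatives, 17 had a probe and 14 were tested, 0 passed, and the median was 0.013. The ETS factors ELF4 and ELF2 stood at 0.35 ± 0.35 and 0.27 ± 0.25 (n = 4, adjusted p = 0.969 for each in limma). TEAD1, TEAD2 and TEAD3 stood at 0.14, 0.12 and -0.10, and TFAP2B and TFAP2D at 0.13 and 0.11. Whether a member's probe also binds a relative was not tested.

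The list of trophectoderm products held structural and secreted proteins of the layer, and also enzymes and membrane transporters. Of 17 such genes 14 were tested, 0 passed for age, and the median was 0.046. Their medians on arrays 1 to 4 were 0.24, 0.28, -0.76 and 0.20, where those of the members were 0.067, 0.10, -0.11 and -0.019. Both were highest on array 2 and lowest on array 3. So was the median of all tested probes, at 0.0020, 0.015, -0.014 and -0.0041 on arrays 1 to 4. Loess holds that median near 0, so a shared order says little about the size of a shift. On array 3 the products' median lay below the 5th percentile of single tested probes there (-0.69), and the members' median did not. The glucose transporter SLC2A1 stood at -0.42 ± 0.078 and the pregnancy-associated glycoprotein PAG12 at 0.47 ± 0.70 (n = 4, adjusted p = 0.969 for each in limma). In whole embryos, fewer trophectoderm cells and less RNA per cell cannot be told apart. The difference between the products and the factors was not tested.

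Markers of the blastocyst's lineages were checked next to those of other cells. Of 8 trophectoderm markers 6 were tested and all 6 were above background in 8 of 8 channel signals. Their summed normalised intensity ran from 59145 to 109921 over arrays at 12 months and from 68226 to 122405 at 16 months. Of these 6, the keratin KRT8 passed for dye (coefficient 1.27, adjusted p = 0.0193 in limma). That call was lost without background correction, with mean pixel intensity, with the deposited table, with the ignored spots kept, and without array 1 or array 2, where 0 probes passed for dye. Of 10 inner cell mass markers 9 were tested, with NANOG, SOX2 and POU5F1 above background in all 8 channel signals, and their sums ran from 17486 to 26310 and from 20575 to 27838. The 7 tested of 8 primitive endoderm markers had sums from 7679 to 12771 and from 8052 to 14801. Of 9 cumulus and granulosa cell markers 4 were tested, and their sums ran from 762 to 1174 and from 921 to 1342. Within that list CYP19A1, STAR and INHBA were above background in 8 of 8 channel signals and PTX3 in 5, while HAS2 and AMH were in 0. Of 6 sperm and spermatid markers 5 were tested, with sums from 726 to 1098 and from 755 to 804, and PRM1, TNP2 and DKKL1 were above background in 8 of 8. The part of such cells in the members' values was not tested. For every list the ranges of the ages overlapped, but such ranges set aside the pairing of the ages within an array. On every array the trophectoderm sum was higher in the age that carried Cy5. At 12 months it was 109921, 108660, 59145 and 89048 on arrays 1 to 4, and at 16 months 68226, 79201, 107896 and 122405. The overlap of these sums therefore says little about age.

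The genes whose ratios lay closest to each member's were named by a fixed rule, the Euclidean distance over the 4 array ratios among 16225 probes of other named genes. For TEAD4 these were IQCA1 and DNAJC30, at distances of 0.033 and 0.050 log2 units. For CDX2 they were TNFSF15 and AP1S3 (0.018 and 0.028), for GATA2 PRODH2 and CRYAB (0.078 and 0.084), and for GATA3 DNAJC27 and SHLD1 (0.026 and 0.045). TFAP2A had TCF12 and LOC525649 (0.11 and 0.14), TFAP2C had TM4SF1 and BNIP3L (0.11 and 0.16), EOMES had ATP6V1A and TTC21A (0.097 and 0.12), and ELF5 had ZPBP and PTAFR (0.047 and 0.052). A small distance is easily reached by a gene with ratios near 0: within 0.2 log2 units lay 307 probes for GATA3 and 365 for ELF5, but 7 for TFAP2A and 3 for TFAP2C.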

How the data were processed

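Each of 4 arrays carried both ages in 2 channels. Per the file headers, the deposited scanner files give the intensity of each spot and its surroundings in the Cy3 and Cy5 channels, without background subtraction. The authors' deposited value table holds log2 ratios. Each of its columns followed the Cy5 over Cy3 ratio of its own array (r across tested probes 0.986 to 0.994), the labels do not name its background step, and it served as an alternative. The submitters' processing notes name limma.

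Median intensities were corrected with normexp (offset 50) and normalised by loess within arrays, with control spots at weight 0. Spots marked as ignored (13, 10, 64 and 818 on arrays 1 to 4, 0 of them members) were left out of the background fit too, a choice made after seeing the data. With them, the fitted background fell below 0 on array 3 (Cy5 -39.9, Cy3 -237.0) and array 4 (Cy3 -24.8). The offset draws ratios of dim probes towards 0. Probes above background in at least 4 of 8 channel signals numbered 30986. Age and dye coefficients were fitted to them by lmFit and eBayes (limma 3.58.1, R 4.3.3), and two-sided p-values were adjusted by Benjamini-Hochberg across the whole set. The procedure was tested on simulated data of 42890 probes with assumed noise and dye effects. Changes were set at probes above background in all 8 channel signals. True changes of 2 and 1 log2 units came back at a median of 0.787 and 0.755 of their size. Of these changes 100% and 81% were called, with 16 false calls. The ratios and intervals given here are not corrected for such shrinkage. Precision is limited by the number of arrays: a 95% interval reached 0.29 log2 units either side of its value at the median probe.

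Symbols came from the platform annotation, which names 21790 probes, and all 8 members are current symbols in the RefSeq table of ARS-UCD2.0. No sequence was used. Members and lists were chosen with earlier results of these data known. From each list, genes past the threshold were to be named, or otherwise the 2 with the smallest p, and for each member the 2 genes nearest in ratio. The alternatives were other background, normalisation, pixel, filter, dye and probe choices, the deposited table, and leaving out each array.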

Additional observations from a re-analysis of the deposited data

How the results depend on the processing

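No member passed the threshold for age under any alternative run, the smallest adjusted p of a member's brightest probe being 0.610 in limma. Of 97 alternative values of the 8 genes 83 kept their sign and 14 changed it. The filter and dye-term alternatives could not move a gene's value, so theirs are among the 83 by construction. Of the 11 tested probes, 6, 6, 10 and 5 lay above 0 without array 1, 2, 3 or 4, against 50.4%, 49.4%, 50.3% and 49.0% of all tested probes. Without replicate 1, 2, 3 or 4 the values ran from -0.063 to 0.082 for CDX2, -0.062 to 0.14 for GATA2, -0.0054 to 0.092 for GATA3, 0.010 to 0.032 for TEAD4, -0.24 to 0.097 for TFAP2A, -0.26 to 0.21 for TFAP2C, -0.0080 to 0.33 for EOMES and -0.095 to -0.014 for ELF5. The other changes of sign were CDX2 at -0.00078 and TEAD4 at -0.023 when loess gave way to median centring, TFAP2A at 0.017 with mean pixel intensity and at 0.040 with the ignored spots kept in the background fit (chosen after seeing the data), and TFAP2C at 0.035 as the mean of its 3 probes. The cause was not tested. Over all probes, 0 to 385 passed for age when 1 array was left out, namely 44 without array 3 and 385 without array 4, fits in which a lone array of 1 dye orientation is assumed to vary like the others. None of these were members. For dye, 9 probes passed, against 587 after median centring, 0 without background correction, with mean pixel intensity, with the deposited table or with the ignored spots kept, and 0 to 1561 when 1 array was left out. The TFAP2A range over arrays of 2.11 stayed between 1.597 and 2.18 under 5 alternatives chosen after seeing the data. The lowest array did not stay the same. With the ignored spots kept and no scaling of brightness between arrays, array 3 stood at 8.78, against 7.73 in the main setting. Array 2 was then lowest, at 8.40. Levels of the other members were not rerun in this way. The values are paired as they stand, since each ratio sets both ages against each other on 1 array. Beyond this within-array pairing, no paired analysis was possible because, with 1 ratio per replicate number, a replicate block would use up every value. EOMES and the second TEAD4 probe are limited by signal close to background.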
